A study of Mus musculus with 5 samples.

Results

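The genes described here are 10 interferon-stimulated genes of the mouse: Stat2, Irf1, Ifitm1, Ifitm2, Ifitm3, Ifi35, Trim25, Ifit3, Mx2 and Oas2. They were taken by name from the probes that carry exactly 1 gene symbol in the platform annotation, and each had 1 probe among the 20205 on the array. The genes were chosen by their known induction by interferon and with their log2 ratios between these cell lines already in view, so those ratios are given as a description, with no test. Of the 50 possible values, 10 genes on 5 arrays, 43 were present.

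The comparison was of NIH3T3 cells that constitutively overexpress human ERBB2 (HER-2/neu, a receptor tyrosine kinase) from a cytomegalovirus promoter with untransfected NIH3T3 cells, an immortalised mouse fibroblast line. Both were grown in serum-containing medium with antibiotics, and no interferon treatment is described in the labels. The labels do not say whether the transfected line is 1 clone, and the untransfected line is not described as carrying an empty vector. RNA of both lines was labelled with Cy3 or Cy5 and hybridised together to each of 5 spotted arrays, 3 of preparation A (A1, A2 and A3) and 2 of preparation B (B1 and B2). Erbb2-transfected cells carried Cy5 on A3 and B2 and Cy3 on A1, A2 and B1. Ratios are given on the log2 scale with the transfected line on top, so that a negative value means a lower signal in the transfected line.

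Interferons bind cell surface receptors that activate the kinases JAK1, JAK2 and TYK2 and, through them, STAT transcription factors. Complexes that contain STAT2 and IRF9 bind the interferon-stimulated response element (ISRE) in target promoters, and a further element, the gamma-activated site (GAS), is bound mainly after interferon gamma. The induced genes encode proteins that block virus entry, sense or degrade viral RNA, or feed back on the signalling itself. Fibroblasts respond to interferon and also express many of these genes at a low level without it.

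Promoters of the members were searched for these elements as a property into which the ratios do not enter. RefSeq promoter windows of 300 bases, of which 250 lie before the start site, were held for 8 of the 10 members on GRCm38.p6. The ISRE core was searched as GAAA, any 2 bases, GAAA, on both strands, and the GAS as TTC, any 3 bases, GAA, which reads the same on both strands. The ISRE core was found for 4 of these 8 members, Stat2, Ifitm2, Ifitm3 and Ifit3, and for 3.99% of all 27025 genes with a window. The GAS was found for 3 members, Irf1, Ifitm3 and Ifi35, and for 9.55% of all these genes. Since the members were chosen by their known induction by interferon, a higher share among them was likely beforehand. In the windows of Ifitm1 and Trim25, neither set of letters was present. A match is a description of the letters and not evidence of binding.

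The windows of the 3 Ifitm genes are shown because these genes are neighbours on chromosome 7 and each had a mean ratio below 0, and those of Ifit3 and Stat2 because they hold the ISRE core and had a mean above 0. Each runs from 250 bases before to 30 bases after the start site, 5′ to 3′ along the gene, and capitals mark the matches. On GRCm38.p6, the stretch of Ifitm1 is chr7:140967826-140968105 on the plus strand, Ifitm2 chr7:140955932-140956211 and Ifitm3 chr7:141010715-141010994 on the minus strand, and Ifit3 chr19:34583279-34583558 and Stat2 chr10:128270248-128270527 on the plus strand. The order of coding genes along chromosome 7 is Ifitm2, Ifitm1, Ifitm3.
Ifitm1: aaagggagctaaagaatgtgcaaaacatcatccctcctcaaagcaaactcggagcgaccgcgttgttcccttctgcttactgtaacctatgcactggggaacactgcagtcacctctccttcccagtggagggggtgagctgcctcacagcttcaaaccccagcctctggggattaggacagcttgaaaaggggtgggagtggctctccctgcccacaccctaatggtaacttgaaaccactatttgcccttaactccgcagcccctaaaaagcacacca
Ifitm2: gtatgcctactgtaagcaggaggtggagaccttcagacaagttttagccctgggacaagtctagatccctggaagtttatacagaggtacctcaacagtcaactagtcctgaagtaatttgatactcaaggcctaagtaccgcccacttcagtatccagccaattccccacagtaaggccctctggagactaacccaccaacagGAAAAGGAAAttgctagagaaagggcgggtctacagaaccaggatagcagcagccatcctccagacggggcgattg
Ifitm3: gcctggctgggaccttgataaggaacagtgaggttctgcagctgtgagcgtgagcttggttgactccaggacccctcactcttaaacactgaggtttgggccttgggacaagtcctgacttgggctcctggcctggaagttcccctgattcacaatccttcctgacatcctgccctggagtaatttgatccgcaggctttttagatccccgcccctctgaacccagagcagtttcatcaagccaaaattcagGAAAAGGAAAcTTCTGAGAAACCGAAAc
Ifit3: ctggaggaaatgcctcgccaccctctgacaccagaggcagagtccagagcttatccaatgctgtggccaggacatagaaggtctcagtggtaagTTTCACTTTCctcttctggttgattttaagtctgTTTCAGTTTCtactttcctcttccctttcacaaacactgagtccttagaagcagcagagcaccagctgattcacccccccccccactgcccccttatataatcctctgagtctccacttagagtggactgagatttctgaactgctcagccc
Stat2: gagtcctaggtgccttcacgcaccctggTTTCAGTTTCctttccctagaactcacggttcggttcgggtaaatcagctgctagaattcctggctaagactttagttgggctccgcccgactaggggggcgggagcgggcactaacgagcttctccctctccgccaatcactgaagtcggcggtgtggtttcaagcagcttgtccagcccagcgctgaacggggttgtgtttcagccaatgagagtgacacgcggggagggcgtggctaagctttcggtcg

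In Ifitm3 a GAS from base 14 to 22 after the start lay between ISRE cores at 3 to 12 and 20 to 29 and overlapped the downstream core. Ifitm2 had an ISRE core with the same letters as the first of Ifitm3, from -46 to -37. Ifit3 had ISRE cores at -156 to -147 and -122 to -113, and Stat2 had 1 at -222 to -213, all 3 on the opposite strand to the gene.

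**Figure D1:**
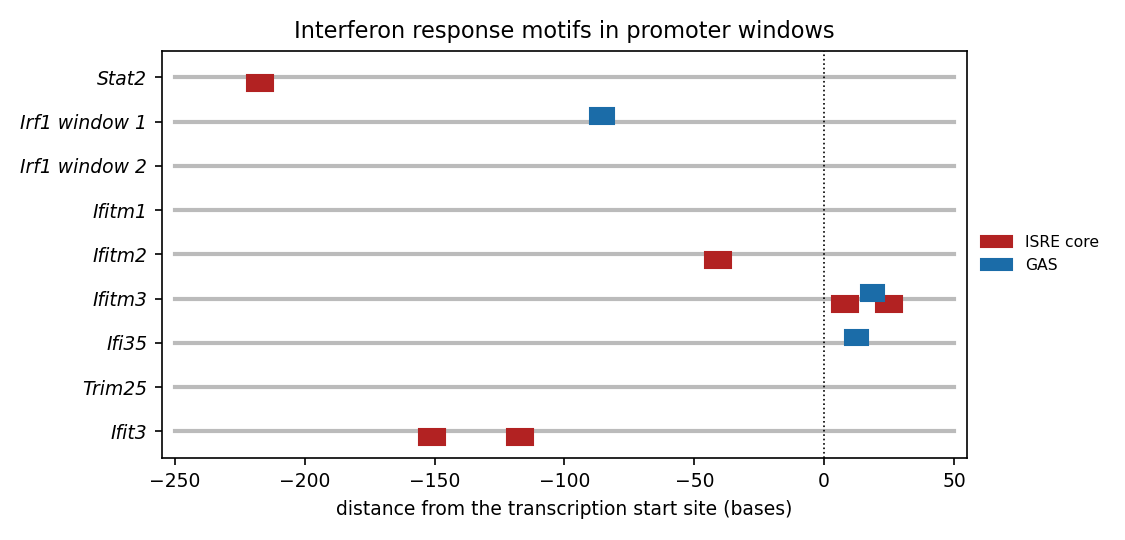
Matches to the ISRE core (red) and the GAS (blue) in the promoter windows of 8 interferon-stimulated genes, 1 row per window. The horizontal axis is the distance from the transcription start site in bases; the Ifit3, Stat2, Ifitm2 and Ifitm3 rows hold ISRE cores, and the Ifitm1 and Trim25 rows hold neither motif.

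Across the 10 genes the values went both ways. In RNA of whole cultures, less RNA per cell and fewer cells expressing a gene cannot be told apart. Of these, 3 lay below 0 on every array with a value (Ifitm1, Ifitm2 and Irf1), 2 lay above 0 on every such array (Mx2 and Oas2), and 5 had both signs. The mean of the preparations was below 0 for 6 genes and above 0 for 4, with a median of -0.51. All 4892 features with a value in both dye orientations of both preparations had a median of -0.02. Of the 10 members, 7 met that condition, with a median of -0.75, and 3 (Irf1, Mx2 and Oas2) did not. The members were chosen with these ratios in view, so the medians are a description. The sources used here do not give the dye in the numerator of the deposited ratios. Cy5 was taken, as the first channel of every array, so the direction is likely and not settled, and the opposite reading turns every sign in this text.

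**Figure D2:**
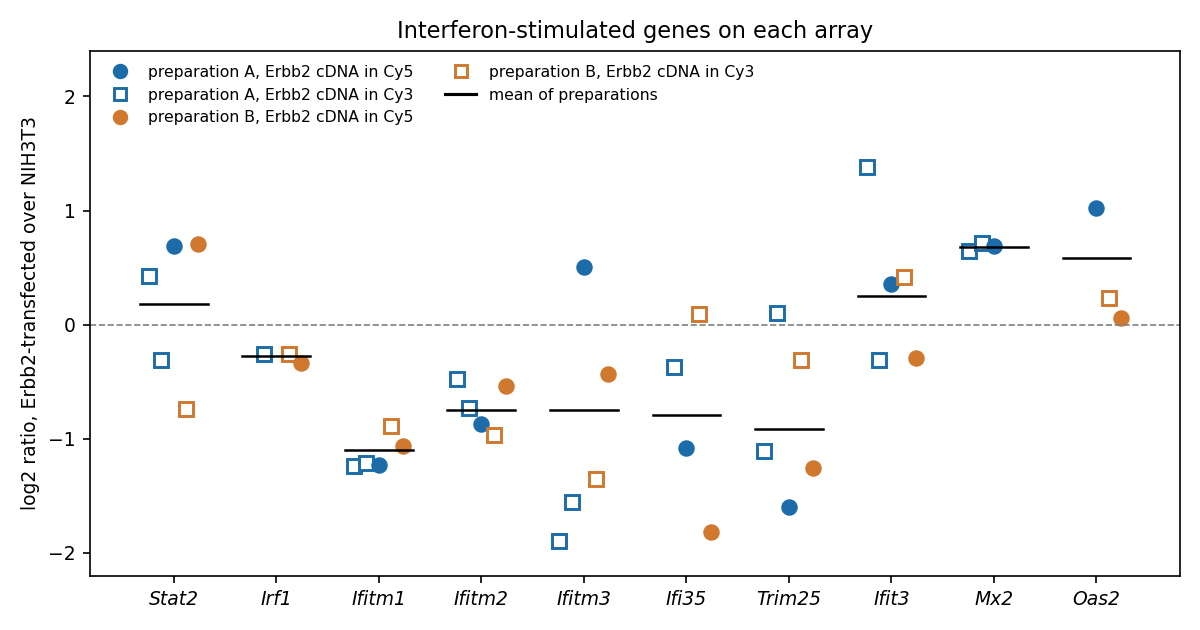
Log2 ratio of Erbb2-transfected over NIH3T3 cells for each of the 10 genes on each array with a value. Filled circles are arrays with Erbb2 cDNA in Cy5, open squares arrays with it in Cy3, blue preparation A, orange preparation B, and black lines the mean of the preparations. Ifitm1 and Ifitm2 lie below 0 on all 5 arrays, and the circles and squares of Ifitm3, Ifi35, Trim25 and Stat2 lie apart.

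Among the members that transmit the interferon signal, Stat2, the STAT found in the complex that binds the ISRE, had log2 ratios of 0.43, -0.31 and 0.69 in preparation A (A1 to A3), with -0.74 and 0.71 in preparation B. The sign followed neither preparation, and both arrays with Erbb2-transfected cells in Cy5 were the highest. Its mean was 0.18 ± 0.28 (SD of 2 preparations), and it lay on the other side of 0 without B2, at -0.18. Without the others it was 0.09 (A1), 0.27 (A2), 0.02 (A3) and 0.54 (B1). Irf1, a transcription factor induced mainly by interferon gamma, had values of -0.26 (A2), -0.25 (B1) and -0.33 (B2), with none on A1 and A3. These 3 values lay within 0.1 of each other and corresponded to a signal 1.21-fold lower in Erbb2-transfected cells.

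The interferon-induced transmembrane proteins sit in cell membranes and hinder the fusion of viruses with them. Ifitm1 had -1.24, -1.21 and -1.23 in preparation A (A1 to A3), with -0.88 and -1.06 in preparation B. All 5 arrays lay close together, those of preparation A below those of preparation B. Its mean was -1.10 ± 0.18 (SD, n = 2 preparations), a signal 2.15-fold lower in Erbb2-transfected cells, and no more than 7.51% of the probes of any array had a lower ratio.

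Ifitm2 had -0.48, -0.73 and -0.87 in preparation A (A1 to A3), with -0.97 and -0.53 in preparation B. It was thus below 0 in both preparations and in both dye orientations, with a mean of -0.75 ± 0.01. That SD understates its spread, since the arrays ranged from -0.97 to -0.48. Its rank on the arrays differed more, as 2.42% of the probes lay lower on B1 and 24.1% on A1.

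Ifitm3, the most studied antiviral member of the family, was at 0.51 (A3) and -0.43 (B2) in the Cy5 orientation and at -1.90 (A1), -1.56 (A2) and -1.35 (B1) in the Cy3 orientation. The arrays with Erbb2-transfected cells in Cy5 (A3 and B2) were both higher than the 3 with them in Cy3. The mean of -0.75 ± 0.20 therefore stands between values of 0.04 in the Cy5 orientation and -1.60 in the Cy3 orientation. On A3 alone 81.6% of the probes lay lower than Ifitm3, against at most 26.5% on each of the other 4 arrays, and without A3 the mean was -1.31. The Ifitm genes are similar in sequence and a cDNA probe of 1 can bind transcripts of the others, so their separate values are uncertain. Between Ifitm1 and Ifitm2 the root mean square difference over the 5 arrays was 0.50, against 0.92 between Ifitm1 and Ifitm3 and 0.98 between Ifitm2 and Ifitm3.

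Ifi35 encodes a leucine zipper protein that binds Nmi, another interferon-induced protein. It had -0.37 and -1.09 on A2 and A3, and 0.10 and -1.82 in preparation B, and no value on A1. The Cy5 arrays A3 and B2 were the lower ones in both preparations. Its mean was -0.79 ± 0.10, with -1.45 in the Cy5 orientation and -0.14 in the Cy3 orientation. That SD, too, understates the spread between arrays, and the mean was -0.31 without B2 and -1.27 without B1. Trim25, the ubiquitin ligase that acts on the RNA sensor RIG-I, had -1.10, 0.10 and -1.60 in preparation A (A1 to A3), with -0.31 and -1.25 in preparation B. It was below 0 on 4 of 5 arrays, again with both Cy5 arrays lowest, and its mean was -0.92 ± 0.19.

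The remaining members encode antiviral effectors. Ifit3 belongs to a family of proteins with tetratricopeptide repeats that act on viral RNA, and it had 1.38, -0.31 and 0.36 in preparation A (A1 to A3), with 0.42 and -0.29 in preparation B. Its arrays lay on both sides of 0 in each preparation, and the mean of 0.25 ± 0.27 was no larger than its SD. Leaving out 1 array gave 0.04 (A1), 0.47 (A2), 0.08 (B1) and 0.43 (B2). On A1 97.1% of the probes lay lower than Ifit3, and on A2 29.2% did.

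Mx2 encodes a dynamin-like GTPase. It had 0.64, 0.72 and 0.69 in preparation A (A1 to A3) and no value in preparation B. These 3 values lay within 0.1 of each other over both dye orientations and corresponded to a signal 1.61-fold higher in Erbb2-transfected cells, without a second preparation to set beside them. Oas2, a synthetase of the oligoadenylates that activate RNase L, stood at 1.02 (A3), 0.23 (B1) and 0.06 (B2). Its 1 value in preparation A was far above both values in preparation B, and the mean was 0.58 ± 0.62, or 0.15 without A3.

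How bright the spots were can be read in part from the values. Where background-subtracted intensities are whole numbers, a spot with at most 300 scanner units in both dyes equals a ratio of whole numbers up to 300 times the array's scaling constant. Between 19.1% (B1) and 58.8% (A2) of an array's values matched such a ratio within 6e-07, against 1.30% to 1.65% when the constant was shifted. Of the 43 values of the members, 18 matched (41.9%). All 3 values of Irf1, all 3 of Oas2, 4 of 5 of Ifit3, 3 of 5 of Trim25 and 2 of 3 of Mx2 were among them, but 0 of 5 for Ifitm3 and for Stat2, and 1 each for Ifitm1, Ifitm2 and Ifi35. For Ifi35 that value was B2, its lowest, where the smallest matching numbers were 5 units in Erbb2-transfected and 24 units in NIH3T3 cells or a multiple of them. For Oas2 on A3, its highest value, they were 3 and 2 units or a multiple. The part of spot brightness in these values was not tested.

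The dye effect is a different contrast from the one in view when the members were chosen. It was tested with limma on the 5 arrays, with the preparation as a further term. Since preparation A has more arrays in the Cy3 than in the Cy5 orientation, the dye estimate is not wholly independent of the difference between cell lines. The dye effect is given as the ratio on arrays with Erbb2-transfected cells in Cy5 minus that on arrays with them in Cy3. Of the 7 tested members, 0 passed at an adjusted p under 0.05, where 0.593% of the 4892 features did. At an unadjusted p under 0.05, 4 of the 7 did so, against 13.2% of all features. These were Ifitm3 with 1.67 ± 0.41 (estimate ± SE, adjusted p = 0.0906), Ifi35 with -1.32 ± 0.44 (adjusted p = 0.221), Trim25 with -1.03 ± 0.42 (adjusted p = 0.305) and Stat2 with 0.98 ± 0.40 (adjusted p = 0.305). The same 4 genes had values that did not overlap between the dye orientations, as 36.5% of all features had. The effects ran in opposite directions, upward for Ifitm3 and Stat2 and downward for Ifi35 and Trim25. Ifitm1 and Ifitm2 had dye effects of -0.08 ± 0.37 and 0.03 ± 0.38, and Ifit3 had -0.41 ± 0.47. Without A1, Ifitm3, Ifi35 and Trim25 passed (adjusted p = 0.0161, 0.0410 and 0.0379), and without A2 Ifitm3 passed (adjusted p = 0.0213). More features passed in these fits, 256 of 4844 without A1 and 56 of 2920 without A2, against 29 of 4892 with all arrays. Ifi35 has no value on A1, and its estimate was -1.32 with and without that array. Over all alternatives fitted the highest adjusted p was 0.920 for Ifitm3, 0.912 for Ifi35 and 0.922 for Trim25. For these genes the mean over dye orientations rests on arrays that differ from each other by more than the preparations do.

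In the same fit the preparations did not differ for any of the 7 members at an adjusted p under 0.05, and 0 of 7 had an unadjusted p under 0.05. Over all features 0.0204% passed, and 6.75% had an unadjusted p under 0.05. The largest estimate among the members was that of Stat2, with 0.45 ± 0.40 for preparation A minus B (adjusted p = 0.933). Values of Ifitm1 did not overlap between preparations, as was so for 24.3% of all features, and its difference was -0.27 ± 0.37.

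**Figure D3:**
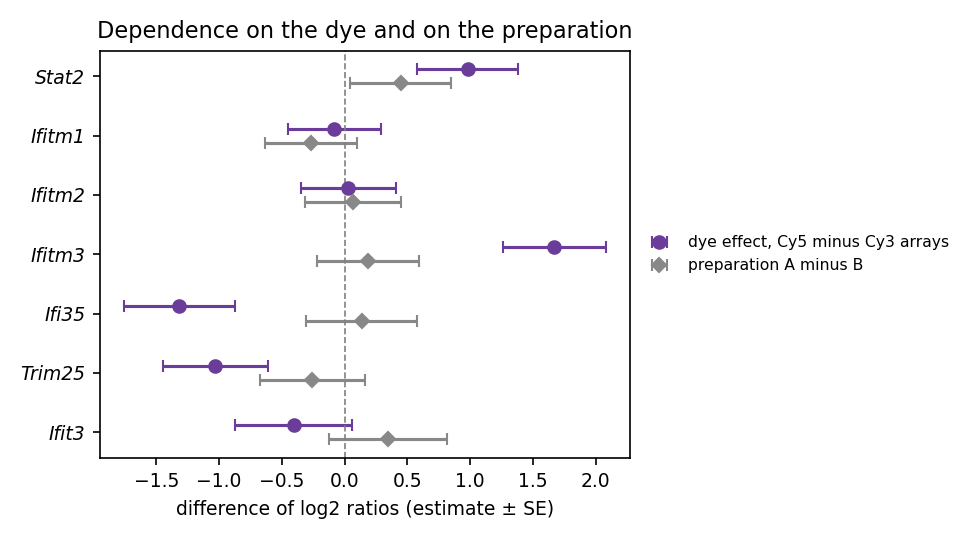
Estimates with SE from limma's fit on 5 arrays for the 7 tested members. Purple circles are the dye effect (arrays with Erbb2 cDNA in Cy5 minus arrays with it in Cy3) and grey diamonds the difference of preparation A minus B, both as differences of log2 ratios. Ifitm3 and Stat2 lie above 0 and Ifi35 and Trim25 below 0 for the dye, while Ifitm1 and Ifitm2 lie near 0.

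The genes with ratios most like those of the members over the 5 arrays were sought among the 2001 other genes with a value on all of them. For Ifitm1 these were Rcn3 and Abra, with root mean square differences of 0.15 and 0.23. Pcgf2 and Gys1 were nearest to Ifitm2 (0.22 and 0.22), and Cep44 and Mmp2 to Trim25 (0.32 and 0.33). Stat2 lay nearest to Cox7a2 and Baz2b (0.19 and 0.19) and Ifit3 to Tex22 and Chd4 (0.23 and 0.28). The neighbours of Ifitm3, Dnajc19 and Smdt1, were farther away (0.49 and 0.49). Dnajc19 read 0.45 (A3) and -0.23 (B2) in the Cy5 orientation and -0.96 (A1), -1.66 (A2) and -0.84 (B1) in the Cy3 orientation. It was picked for its nearness to Ifitm3 on these same 5 arrays, so a like split between dye orientations was likely beforehand. Arrays and dyes are common to all of these values.

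The rest of the interferon pathway was taken from lists of 221 other genes, of which 84 had a probe of 1 gene symbol, 79 had a value and 24 could be tested. In limma's test of Erbb2-transfected against NIH3T3 cells, Traf6 rose, Isg20 fell and 22 did not pass. The 2 calls compare with the 6.79% of all features that passed, 2.25% upward and 4.54% downward. At an unadjusted p under 0.05 there were 7 of 24, against 22.9% of all features. The median of the 24 genes was -0.03, close to that of all features.

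Isg20 encodes an exonuclease that degrades single-stranded RNA. It had -1.52, -1.53 and -1.45 in preparation A (A1 to A3), with -0.53 and -0.68 in preparation B. All arrays were below 0, with preparation A further below than B, and its mean was -1.05 ± 0.62 (SD, n = 2 preparations; SE 0.24, limma adjusted p = 0.0257). Traf6, an adaptor ubiquitin ligase of Toll-like receptor signalling, had 1.29 and 1.06 on A2 and A3, and 0.64 and 0.91 in preparation B, and no value on A1. It was above 0 on each of these 4 arrays and had a mean of 0.97 ± 0.28 (SE 0.21, adjusted p = 0.0194). Neither gene passed without A3 or without B2 (adjusted p = 0.0709 and 0.0594 for Isg20, and 0.0622 and 0.0594 for Traf6), nor Traf6 without B1 (adjusted p = 0.0541), and without A2 it could not be tested. Scaling to equal spread also ended both calls (adjusted p = 0.0861 for Isg20 and 0.0577 for Traf6), as did robust and trended eBayes (0.0694 and 0.0753), and quantile normalization that of Isg20 (0.0643).

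**Figure D4:**
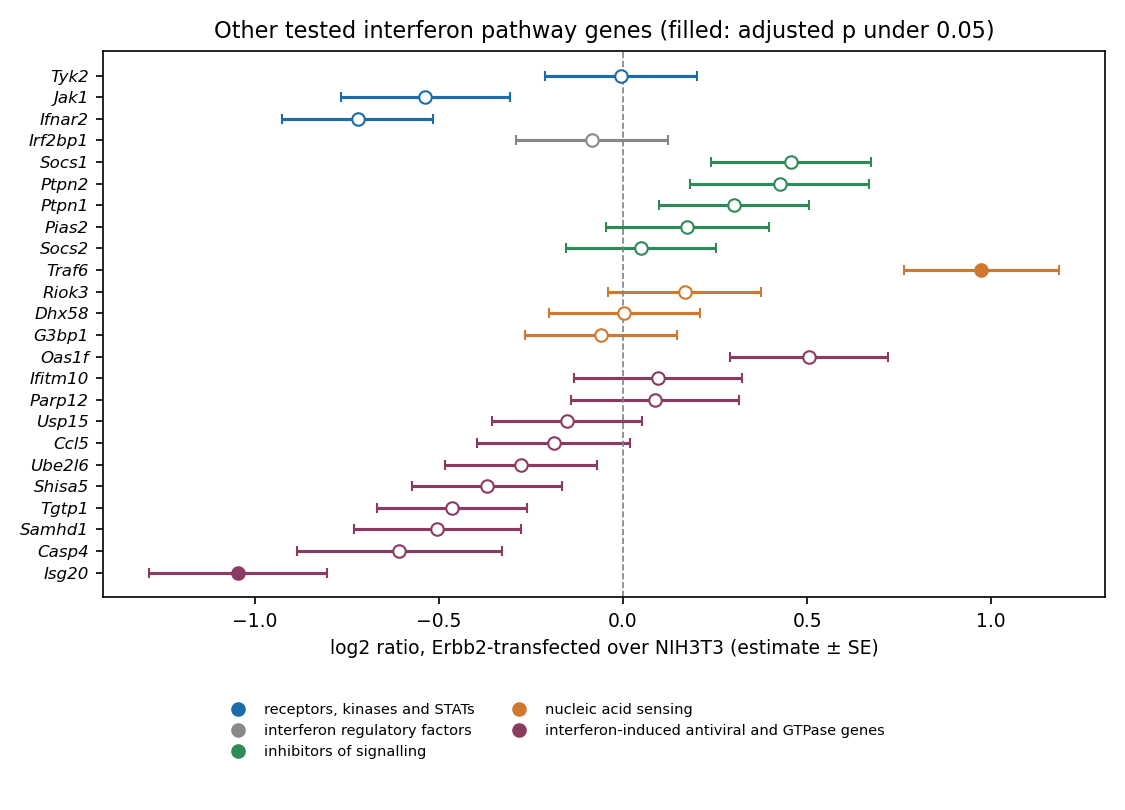
Log2 ratio of Erbb2-transfected over NIH3T3 cells, with the SE of limma's fit, for the 24 tested interferon pathway genes that are not among the 10 members. Colours mark the lists, and filled points are the genes with an adjusted p under 0.05, Traf6 above 0 and Isg20 below 0. The means of the 5 inhibitors of signalling lie above 0 without passing, and each had arrays on both sides of 0.

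No probe of 1 gene symbol was named for any of the 19 interferons listed. Of 16 receptors, kinases and STATs, 3 were tested and 0 passed. Ifnar2, a chain of the type I interferon receptor, had -0.72 ± 0.15 (SE 0.21, adjusted p = 0.0608), with values of -0.60, -1.06, -0.27 and -0.96 on A2, A3, B1 and B2. Its 3 probes differed, from -1.56 to -0.24 on B2. Ifnar2 passed in 8 of the alternatives, among them the limma fit on 5 arrays with a dye term (adjusted p = 0.0436), with adjusted p from 0.0106 to 0.0461, and had adjusted p up to 0.305 in the others. Jak1, a kinase of the receptors, had -0.54 ± 0.50 (adjusted p = 0.191) and was below 0 on all 4 arrays with a value. Outside the test, Stat5b was above 0 on 3 arrays with 1.96, 0.47 and 0.19 on A1, A2 and B1, and Stat5a had -0.72 and -0.05 on A2 and B1.

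Among 12 interferon regulatory factors and partners, Irf2bp1 alone could be tested, at -0.08 ± 0.16, and it did not pass (adjusted p = 0.849). Irf8, known for its part in leukocyte development, stood at -4.13 (A3), -0.75 (B1) and -2.35 (B2). These were the values of 1 of its 2 probes, all were below 0 and far apart, and no array of preparation A in the other dye orientation had one. Nmi, the binding partner of the protein that Ifi35 encodes, had -1.14, -0.03 and -0.64 on A2, B1 and B2. Irf5 had 0.47 and 0.79 on A2 and B1.

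Each of the 5 tested inhibitors of signalling had a mean above 0, from 0.05 to 0.46, and 0 of 5 passed. Over all 4892 tested features, 52.0% lay below 0. All 5 means also lay above 0 when the arrays were centred, scaled to equal spread or quantile normalized. In the main fit the lowest, Socs2 (0.05), had 0.37 (A2), -0.19 (A3), 0.49 (B1) and -0.47 (B2), so its sign depends on the arrays kept. Each of the 5 had arrays on both sides of 0, and Pias2 in preparation B (-0.13) and Ptpn2 in preparation A (-0.02) had means below 0. Of 6 untested inhibitors with a value, 3 lay above 0 and 2 below 0 on every array that measured them, 3 of the 6 on 1 array alone. Socs1, which blocks the JAK kinases, was the highest with 0.46 ± 0.37 (adjusted p = 0.239). Outside the test, Pias1 had 0.05 and 0.18 on B1 and B2, from 2 probes of opposite sign on B2, and Usp25 had -0.35 and -0.02 there. In the list of nucleic acid sensing, 4 of 27 genes were tested, of which Traf6 rose and 3 did not pass, with values from -0.06 to 0.17.

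The list of interferon-induced antiviral and GTPase genes held 133 further genes, of which 11 were tested. Isg20 fell, 0 rose and 10 did not pass. The median of the 11 was -0.28, with 8 below 0 and 3 above, where 52.0% of all 4892 tested features lay below 0. Tgtp1, an interferon-induced GTPase, Shisa5 and Ube2l6, which transfers ISG15 to its targets, lay below 0 wherever they were measured, with -0.47, -0.37 and -0.28, and did not pass (adjusted p = 0.203, 0.314 and 0.472). Outside the test, 27 genes had a value, of which 12 lay below 0 and 5 above 0 on every array that measured them. These include all 8 genes measured on 1 array alone (B1), which have 1 sign by construction. Of those 8, Trim26 lay above 0 and the others below 0, so most of the imbalance came from single values. Ly6e, an interferon-induced surface protein that affects virus entry, had -2.26 and -1.89 on A1 and A2 and -1.84 and -2.25 on B1 and B2, and no value on A3. This is 4.17-fold lower in Erbb2-transfected cells, with the arrays of both preparations and both dyes within 0.5 of each other. With A3, where it has no value, left out, a test no longer needed preparation A in the Cy5 orientation. Ly6e could then be tested among 8074 features and passed (limma adjusted p = 0.000374), with preparation A in the Cy3 orientation alone. In that setting 219 of the 8074 features passed. Ly6e was named for its large mean in this same contrast, so its p-value is a description. Cd47, which protects cells from phagocytosis, had -1.06, -1.06 and -1.20 on A1, A2 and A3 but -0.10 on B2. Ifi203, a relative of DNA-binding interferon-induced proteins, was above 0 with 0.66, 0.35 and 0.78 on A2, B1 and B2.

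Arrays held values for 5368 (A1) to 17463 (B1) of the 20205 probes, and 14.2% of probes had one on all 5 arrays, as 6 of the 10 members did. The number of arrays limits the precision. P-values measure spread between these samples, which may be technical, since the labels do not say whether the preparations were separate cultures. In the test between cell lines, with 2 preparation means per feature and 10.2 prior degrees of freedom, that spread was estimated mostly from all features together. A p-value there says little of how closely the 2 preparations agreed for 1 gene. As deposited, arrays of opposite dye orientation correlated at -0.54 to -0.17 over probes and those of the same orientation at 0.45 to 0.52. No probe was named for Erbb2 alone, so the transgene could not be checked. A ratio does not show whether a marker is absent from both lines. Of 12 fibroblast markers, 10 had a value and 7 were tested, of which 2 fell, 1 rose and 4 did not pass. The collagen genes Col1a1 and Col1a2 fell, with means of -4.93 ± 0.75 and -3.97 ± 0.14 (limma adjusted p = 5.8e-07 for both), and lay below 0 on all 5 arrays. Pi16 rose (0.77 ± 0.22, adjusted p = 0.0498). Of those that did not pass, Vim had 0.47 (adjusted p = 0.218), Col3a1 0.51 (0.331), S100a4 -0.01 (0.978) and Fap -0.60 (0.111). The untested Thy1, Pdgfrb and Dcn had 0.06, 0.12 and -0.77. The part of these markers in the ratios of the interferon-stimulated genes was not tested. Of 16 macrophage and leukocyte markers, 9 had a value, with means from -0.72 to 0.39, and the 1 tested, Cd52, did not pass (0.31, adjusted p = 0.410).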

How the data were processed

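RNA of both cell lines was compared on 5 two-colour spotted arrays. Per the labels, background was taken off the mean spot intensities read by a GenePix instrument, and the median ratio of each array was set to 1. The authors deposited log2 ratios between dyes. Base 2 was inferred: 19.1% to 58.8% of the values of an array were whole-number ratios on that scale, shifted by 1 constant per array, against 2.55% to 2.87% for the natural logarithm. The sources used here do not state why values are empty.

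The 3 arrays with Erbb2 cDNA in Cy3 were turned in sign. Of 20205 probes, 11723 had 1 gene symbol, 806 several and 7676 none. Probes of 1 symbol were averaged to a gene, the others kept as features, 18151 in all. Dye orientations were averaged within a preparation, and the 2 preparation means of 4892 features were tested against 0 with lmFit and eBayes (limma 3.58.1 in R 4.3.3). P-values were adjusted by Benjamini and Hochberg over all features and called under 0.05; prior degrees of freedom were 10.2. Dye and preparation effects were fitted on the 5 arrays with both terms. The procedures were tested on simulated data in which the errors of the 5 arrays were independent. Errors shared by the arrays of 1 preparation were not simulated, so error rates under them were not tested.

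Members, lists and tests were chosen with earlier results of these data known. Named are the 10 members, each pathway gene past the threshold, up to 3 not past it and up to 3 untested per list (1 sign on every array with a value, at least 2 arrays, largest mean), and the 2 nearest genes per member by root mean square difference. Other genes given were named after their values were seen. Alternatives covered replication, centring, scaling, probe summary, variance, extreme values, threshold and leaving out each array. Promoter sequences are from RefSeq (GRCm38.p6). Python 3.11.15 and matplotlib 3.10.9 served for the plots.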

Additional observations from a re-analysis of the deposited data

Results flagged for a closer look

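Of 16 members and named pathway genes measured on 4 or 5 arrays, Cd47 had a value far from its others, which about 5% of genes would have by chance. Cd47 had -0.10 on B2, its only value in preparation B, against -1.20 to -1.06 on A1, A2 and A3. Array and preparation cannot be told apart for it.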

How the results depend on the processing

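The number of features passing between cell lines, 332, was 509 with 5 arrays and the preparation as a random block, 535 after centring on features with values on all arrays, 124 after scaling to equal spread, 193 after quantile normalization, 564 with only probes measured in both orientations of both preparations, 544 with each probe a feature, 92 with robust and trended eBayes and 548 at an adjusted p under 0.1. Leaving out 1 array gave 198 (B2) to 498 (A1). Of the other pathway genes, 2 passed, against 0 after scaling to equal spread and 0 with robust and trended eBayes in limma (5 and 8 at an unadjusted p under 0.05), 1 after quantile normalization, and 0 (without B2, 4 unadjusted) to 3 (without A1) when an array was left out; A2, A3 or B1 left out gave 1 each, which was Isg20 without A2 or B1 and Ly6e without A3, since Ly6e is tested only there. Numbers of tested genes changed with the arrays, from 11 without A2 to 38 without A3. The median of the members, -0.51, was -0.75 with only probes measured in both orientations of both preparations, where 7 members remained, and -0.50 (without A2) to -0.29 (without B2) when an array was left out. The 29 dye effects became 7 after scaling, 8 after quantile normalization, 19 with each probe a feature, 7 without the preparation term, and 0 (without B1, 344 unadjusted) to 256 (without A1) when an array was left out, with 56, 3 and 6 without A2, A3 and B2. The 1 difference between preparations became 3 with the median of probes and 1 to 25 when an array was left out (25 without A1 or A2, 3 without B2). Of the single genes, Stat2 changed sign, with -0.18 without B2 and 0.54 without B1, and had 0.11 after scaling or quantile normalization. The causes of these changes were not tested beyond the numbers of features and arrays given. The other members kept the sign of their mean in every alternative that gave a value, but leaving out 1 array moved Ifit3 to 0.04 to 0.47, Oas2 to 0.15 (A3), Ifitm3 to -1.31 (A3) and Ifi35 to -0.31 (B2) and -1.27 (B1).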
